A study of Mus musculus with 2 samples.

Results

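The 10 genes described here cover membrane repair, caveolae and calpain-3. Dysf, Trim72, Anxa1, Anxa2, Anxa5 and Anxa6 act in membrane repair, and Cav1, Cav3 and Cavin1 in caveolae. Capn3 is a calpain of the sarcomere. All 10 were chosen by name, and each was matched by gene ID to the deposited gene table and to both deposited transcript tables. They are 10 of 55450 genes analysed, and the counts of all 10 averaged 10 or more. Total RNA was sequenced from the gastrocnemius, a calf muscle of mainly fast fibres, of male B6CASTF1/J mice, a first-generation cross between strains C57BL/6J and CAST/EiJ. The description gives an age of 18 to 20 months, while the age field is unknown. The series holds 1 group, with no treatment named, and 2 libraries called biological replicates 2 and 1. The libraries carry differently numbered males but the same donor record, so their spread may be technical.

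Muscle fibres tear when they contract under load, and calcium entering through the wound triggers repair. Dysferlin and the ubiquitin ligase Trim72 (MG53) bring vesicles to the wound, and annexins bind the exposed phospholipid when calcium is high and form a cap over it. Caveolae are small pits of the membrane that flatten under tension. Calpain-3 is a calcium-dependent protease of the sarcomere, and loss of dysferlin or of calpain-3 causes limb-girdle muscular dystrophy in humans.

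The libraries held 44919441 expected counts in replicate 2 and 40795740 in replicate 1. Fast-fibre markers summed to 74205 TPM in replicate 2 and 94794 TPM in replicate 1, so the defining markers of fast muscle were present. TPM is a level per transcript length, scaled to the same sum in every library, and can be compared between genes. Among the fast-fibre markers, Myh1 had 1171 TPM in replicate 2 and 511 TPM in replicate 1, and Myh2 had 1081 and 279 TPM. Both were at least 2-fold higher in replicate 2, as were 5.22% of all genes whose counts averaged 10 or more. The rest of these markers were lower in replicate 2. The libraries also stood apart in slow-fibre markers, which summed to 2307 TPM in replicate 2 and 214 TPM in replicate 1. All 10 of 10 slow-fibre markers were at least 2-fold higher in replicate 2. In bulk tissue, fewer cells of a type and less RNA per cell cannot be told apart. With 1 library on each side, no difference between the libraries has a replicate check. Intervals on ratios are exact binomial 95% intervals that cover counting error only and compare these libraries, not conditions.

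Anxa6, Capn3 and Dysf carry alternative coding exons whose use could be followed in the transcript tables, and those exons are shown first because the isoform results turn on them. The exons are printed with the exon in capitals and 20 bases of the transcript on each side in lower case. They are in the sense of the transcript, from the GENCODE M21 transcripts on mm10. The bases before the 114-base exon of Capn3 are its whole 18-base exon and the end of the exon before that. The letters are those of the C57BL/6J reference, and an effect of CAST/EiJ alleles on read assignment was not tested. The Anxa6 exon lies at chr11:54987051-54987068 on the minus strand. The Capn3 exons lie on the plus strand at chr2:120486333-120486476, chr2:120498968-120498985 and chr2:120501211-120501324. The Dysf exons lie on the plus strand at chr6:84064471-84064563, chr6:84096477-84096518 and chr6:84157139-84157201. All 7 lengths are multiples of 3, so each exon can be left out without a shift of the reading frame.
Anxa6 18-base exon: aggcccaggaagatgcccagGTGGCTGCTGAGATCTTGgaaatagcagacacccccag
Capn3 144-base exon: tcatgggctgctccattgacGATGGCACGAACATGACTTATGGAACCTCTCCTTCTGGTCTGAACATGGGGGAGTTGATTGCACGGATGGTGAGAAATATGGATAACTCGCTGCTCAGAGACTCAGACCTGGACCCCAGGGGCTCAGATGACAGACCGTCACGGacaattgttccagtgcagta
Capn3 18-base exon: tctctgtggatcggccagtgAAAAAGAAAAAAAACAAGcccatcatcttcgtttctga
Capn3 114-base exon: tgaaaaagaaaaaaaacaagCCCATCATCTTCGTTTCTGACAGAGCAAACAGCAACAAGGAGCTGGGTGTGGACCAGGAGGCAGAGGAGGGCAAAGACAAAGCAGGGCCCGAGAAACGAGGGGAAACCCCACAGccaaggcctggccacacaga
Dysf 93-base exon: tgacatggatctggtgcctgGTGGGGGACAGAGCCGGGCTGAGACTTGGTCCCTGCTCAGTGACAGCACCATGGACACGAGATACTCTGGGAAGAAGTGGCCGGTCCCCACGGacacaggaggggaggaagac
Dysf 42-base exon: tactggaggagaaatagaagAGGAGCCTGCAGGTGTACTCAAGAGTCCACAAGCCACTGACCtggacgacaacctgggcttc
Dysf 63-base exon: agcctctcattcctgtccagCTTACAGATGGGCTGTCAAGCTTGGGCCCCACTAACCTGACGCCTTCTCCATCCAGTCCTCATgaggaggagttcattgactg

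Trim72 and Dysf carry out the vesicle-based step of repair. Trim72, a muscle ubiquitin ligase that starts the patch, was the most abundant of the 10 genes by mean TPM. It lies at chr7:128003949-128011033 on mm10, the build of all positions given here for genes. Its level was 93.4 TPM in replicate 2 and 69.1 TPM in replicate 1, a mean of 81.3 ± 17.2 TPM (SD, n = 2). It ranked 651 by mean TPM among 21938 protein-coding genes of the nuclear genome. The authors' intervals for its TPM were 89.5 to 94.0 in replicate 2 and 65.8 to 69.8 in replicate 1, so the libraries did not overlap. TMM scaling applies a single factor to each library, on the premise that most genes are unchanged, and leaves differences in composition in place. After this scaling, the Trim72 count ratio of replicate 2 to replicate 1 was 1.30 with an interval of 1.25 to 1.35.

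Dysf, which encodes the calcium sensor dysferlin, was near the middle of the order. It lies at chr6:84008590-84211060. Its level was 32.0 TPM in replicate 2 and 35.6 TPM in replicate 1, a mean of 33.8 ± 2.52 TPM. Its count ratio was 0.856 with an interval of 0.821 to 0.892, below 1, but with spike-in scaling its log2 ratio was -0.0043. Of the Dysf TPM, 30.3% in replicate 2 and 31.0% in replicate 1 was held by Dysf-207, a short noncoding transcript. Dysf-207 held 2.28% and 2.30% of the Dysf counts in the same libraries. The place of Dysf in the order and its TPM ratios thus rest partly on that transcript. The ratio of Trim72 to Dysf TPM was 2.92 in replicate 2 and 1.94 in replicate 1. Another quantification, made by the authors directly from the reads and called the second quantification here, gave the same side for this pair, at 4.23 in replicate 2 and 2.57 in replicate 1.

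The 4 annexins covered a wide range of levels. Anxa6, which forms the tight repair cap in mouse muscle, lies at chr11:54979108-55033445 and was by far the most abundant of them. Its level was 73.5 TPM in replicate 2 and 69.1 TPM in replicate 1, a mean of 71.3 ± 3.12 TPM. The count ratio was 1.03 with an interval of 0.991 to 1.07, which holds 1. The authors' intervals for Anxa6 TPM, 70.3 to 74.0 in replicate 2 and 65.9 to 69.6 in replicate 1, did not overlap. Anxa2, at chr9:69453620-69491795, binds membranes as a complex with S100a10 and had 22.6 TPM in replicate 2 and 17.1 TPM in replicate 1, a mean of 19.8 ± 3.89 TPM. Its count ratio was 1.28 with an interval of 1.16 to 1.41. Anxa5, at chr3:36448923-36475894, assembles into lattices on phosphatidylserine and had 20.1 TPM in replicate 2 and 15.4 TPM in replicate 1, a mean of 17.7 ± 3.35 TPM. Its count ratio was 1.18 with an interval of 1.07 to 1.30. Both were thus higher in replicate 2 beyond counting error.

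Anxa1, the annexin also known from the resolution of inflammation, was the lowest of the 10 genes. It lies at chr19:20373428-20390944. Its level was 9.08 TPM in replicate 2 and 6.10 TPM in replicate 1, from 476 expected counts in replicate 2 and 294 in replicate 1, and its mean was 7.59 ± 2.11 TPM. It ranked 5282 by mean TPM, close to the median of 8.21 TPM over the 10058 nuclear protein-coding genes at 1 TPM or more in both libraries. It also had the highest ratio of the 10 genes, 1.43 with an interval of 1.23 to 1.66. The ratio of Anxa6 to Anxa1 TPM was 8.09 in replicate 2 and 11.3 in replicate 1.

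The caveola genes moved in different directions between the libraries. Cavin1, the coat protein that caveolae of all tissues need, lies at chr11:100956733-100970887. Its level was 64.7 TPM in replicate 2 and 56.2 TPM in replicate 1, a mean of 60.4 ± 6.00 TPM, with a count ratio of 1.29 and an interval of 1.24 to 1.34. Cav1, the caveolin of endothelium, adipocytes and smooth muscle, lies at chr6:17306335-17341452. It had 58.2 TPM in replicate 2 and 42.1 TPM in replicate 1, a mean of 50.1 ± 11.3 TPM, with a count ratio of 1.27 and an interval of 1.20 to 1.33. Cav3, the caveolin of muscle fibres, lies at chr6:112459505-112472872. It had 20.2 TPM in replicate 2 and 23.2 TPM in replicate 1, a mean of 21.7 ± 2.16 TPM. Its count ratio was 0.840 with an interval of 0.758 to 0.930, and with spike-in scaling its log2 ratio was -0.03. The authors' intervals for Cav3 TPM, 18.4 to 21.2 in replicate 2 and 21.1 to 24.3 in replicate 1, overlapped. Cav1 thus stood above Cav3 in both libraries although Cav3 is the form of the fibre. The ratio of Cav1 to Cav3 TPM was 2.88 in replicate 2 and 1.81 in replicate 1. By the second quantification it was 2.54 in replicate 2 and 1.56 in replicate 1.

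Marker sums of the cell types known for Cav1 were higher in replicate 2, but not every marker was. Over all genes tested, 5.22% were at least 2-fold higher and 2.25% at least 2-fold lower in replicate 2. Endothelial markers summed to 88.5 TPM in replicate 2 and 67.8 TPM in replicate 1. Of these 10 markers, 8 had a log2 ratio above 0 and 2, Kdr and Cldn5, were at least 2-fold higher in replicate 2, while Emcn at -0.0022 and Esam at -0.09 were not above 0. Adipocyte markers summed to 456 TPM in replicate 2 and 292 TPM in replicate 1, with 3 of 10 (Adipoq, Lep and Lpl) at least 2-fold higher and 2 of 10 (Retn and Adrb3) at least 2-fold lower in replicate 2. Of these 10 markers 7 were above 0. Lpl alone held 185 TPM in replicate 2 and 68.9 TPM in replicate 1, while Cfd was lower in replicate 2, at 19.4 against 35.4 TPM. Smooth muscle and pericyte markers summed to 220 TPM in replicate 2 and 179 TPM in replicate 1, with 2 of 10 at least 2-fold higher and 9 of 10 above 0, Abcc9 being the exception at -0.31. Schwann cell markers summed to 46.1 TPM in replicate 2 and 31.2 TPM in replicate 1, with 3 of 10 at least 2-fold higher and all 10 above 0. Fibroblast markers were lower in their sum, 548 TPM in replicate 2 and 571 TPM in replicate 1, but were split by gene. Of these 10 markers 5 were above 0, and their median log2 ratio was 0.02. Macrophage markers summed to 52.6 TPM in replicate 2 and 46.2 TPM in replicate 1, with 6 of the 9 tested above 0. Satellite cell markers summed to 51.2 TPM in replicate 2 and 46.6 TPM in replicate 1, with 4 of the 7 tested above 0. Sdc4 held 32.6 and 25.7 TPM of these sums in the same libraries, while Myod1, Chodl and Cdh15 were below 0. No marker of any list was at 0 in both libraries. The part of these markers, and of the fast-fibre and slow-fibre markers, in the ratios of the 10 genes was not tested.

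Capn3 was among the steadiest of the genes. It lies at chr2:120456019-120504913 and had 53.0 TPM in replicate 2 and 52.8 TPM in replicate 1, a mean of 52.9 ± 0.177 TPM. Its count ratio was 0.967 with an interval of 0.931 to 1.005, which holds 1. The sign of its log2 ratio, -0.05, turned to 0.17 with spike-in scaling and to 0.0068 with TPM in place of counts. Capn3 was the only one of the 10 genes without whole counts in both libraries, at 5542.34 expected counts in replicate 2 and 5060 in replicate 1. It overlaps Ganc on the same strand, a glucosidase gene with 12.7 TPM in replicate 2 and 20.4 TPM in replicate 1, so reads could be shared between the genes. Genes on the opposite strand of the 10 genes held at most 1 count in either library.

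**Figure D1:**
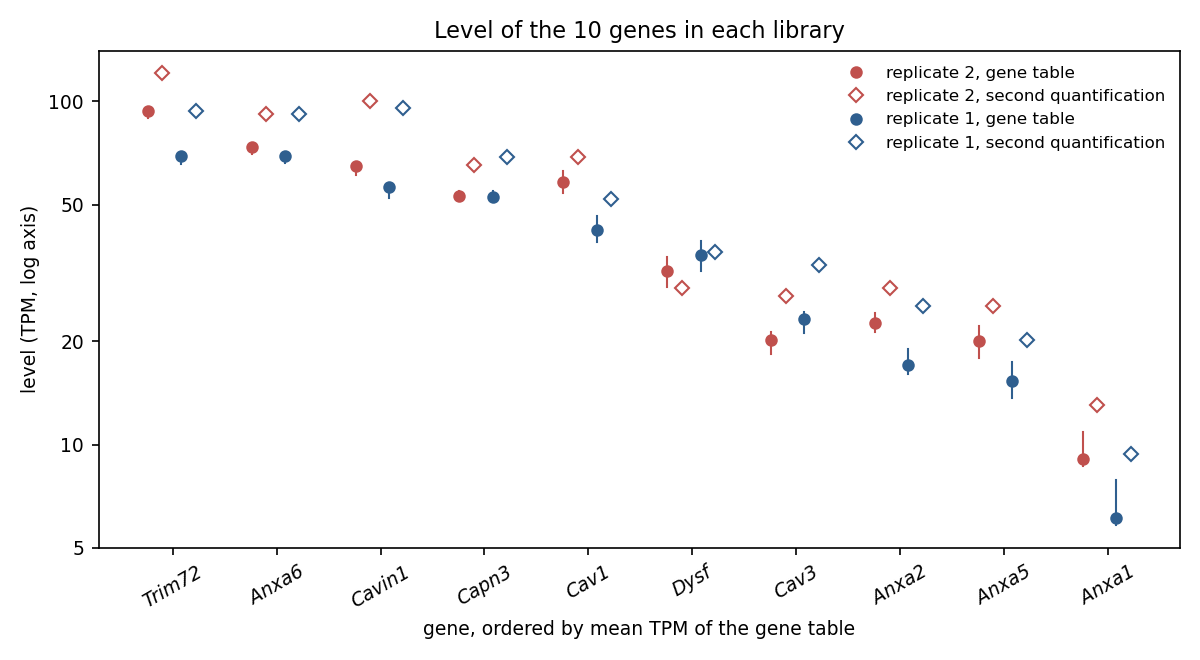
Level of each gene in TPM on a log axis, with replicate 2 in red and replicate 1 in blue; filled points are the gene table with the authors' interval as a line, and open diamonds are the second quantification. In the gene table Trim72 and Anxa6 have the highest means and Anxa1 the lowest, in the second quantification Cavin1 stands above Anxa6, and the second quantification is above the gene table by mean TPM for 9 of the 10 genes.

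The order of levels by mean TPM was Trim72, Anxa6, Cavin1, Capn3, Cav1, Dysf, Cav3, Anxa2, Anxa5 and Anxa1. The ranges of the libraries overlapped between the neighbours Trim72 and Anxa6, Capn3 and Cav1, Cav3 and Anxa2, and Anxa2 and Anxa5. Of these pairs, Capn3 and Cav1, and Cav3 and Anxa2, changed order between the libraries. Anxa2 was above Anxa5 in both libraries. Trim72 was above Anxa6 in both, but at 69.10 against 69.08 TPM in replicate 1. The ranges did not overlap between the other 5 pairs of neighbours, but the second quantification changed 2 of these. It put Cavin1 above Anxa6, with Cavin1 at 99.95 TPM in replicate 2 and 95.8 TPM in replicate 1 and Anxa6 at 91.9 TPM in replicate 2 and 91.6 TPM in replicate 1. It also made Dysf, at 28.5 TPM in replicate 2 and 36.5 TPM in replicate 1, overlap Cav3, at 27.1 TPM in replicate 2 and 33.3 TPM in replicate 1. Of the overlapping pairs, it parted Trim72 from Anxa6, with Trim72 at 120.6 TPM in replicate 2 and 93.6 TPM in replicate 1. Part of the TPM of Dysf and of Cavin1 came from short noncoding transcripts, described below, so the places of both genes rest partly on them. Together the 10 genes summed to 446.7 TPM in replicate 2 and 386.6 TPM in replicate 1, or 0.102% and 0.0843% of the TPM of nuclear protein-coding genes in those libraries. The plot of levels shows that the second quantification was higher for 9 of the 10 genes. For Cavin1 its mean TPM was 1.62 times that of the gene table, and for Dysf 0.962 times. The median of the same ratio over nuclear protein-coding genes was 1.36.

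Between the libraries, none of the 10 genes was past 2-fold, where 7.47% were of the 14953 genes whose counts averaged 10 or more. None was past 1.5-fold either, against 17.2% of those genes. All 10 had counts that averaged over 100, and of the 10298 such genes 3.56% were past 2-fold and 9.2% past 1.5-fold. The interval was above 1 for 6 of the 10 genes (Trim72, Cavin1, Cav1, Anxa1, Anxa2 and Anxa5), as for 22.2% of all genes tested and 25.1% of those more deeply counted genes. It was below 1 for 2, Dysf and Cav3, as for 19.8% of all genes tested and 24.9% of the more deeply counted. It held 1 for Anxa6 and Capn3. The authors' own TPM intervals did not overlap between the libraries for 7 of the 10 genes, beside 19.3% of all genes tested and 24.9% of those whose counts averaged 100 or more. The 7 were Trim72, Anxa6, Cavin1, Cav1, Anxa2, Anxa5 and Anxa1. They include Anxa6, whose ratio interval held 1, and leave out Dysf and Cav3, whose ratio intervals were below 1. The median log2 ratio of the 10 genes was 0.29, beside 0.0089 over all genes tested. In the second quantification all 10 ratios lay on the same side as in the gene table, and again none was past 1.5-fold.

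**Figure D2:**
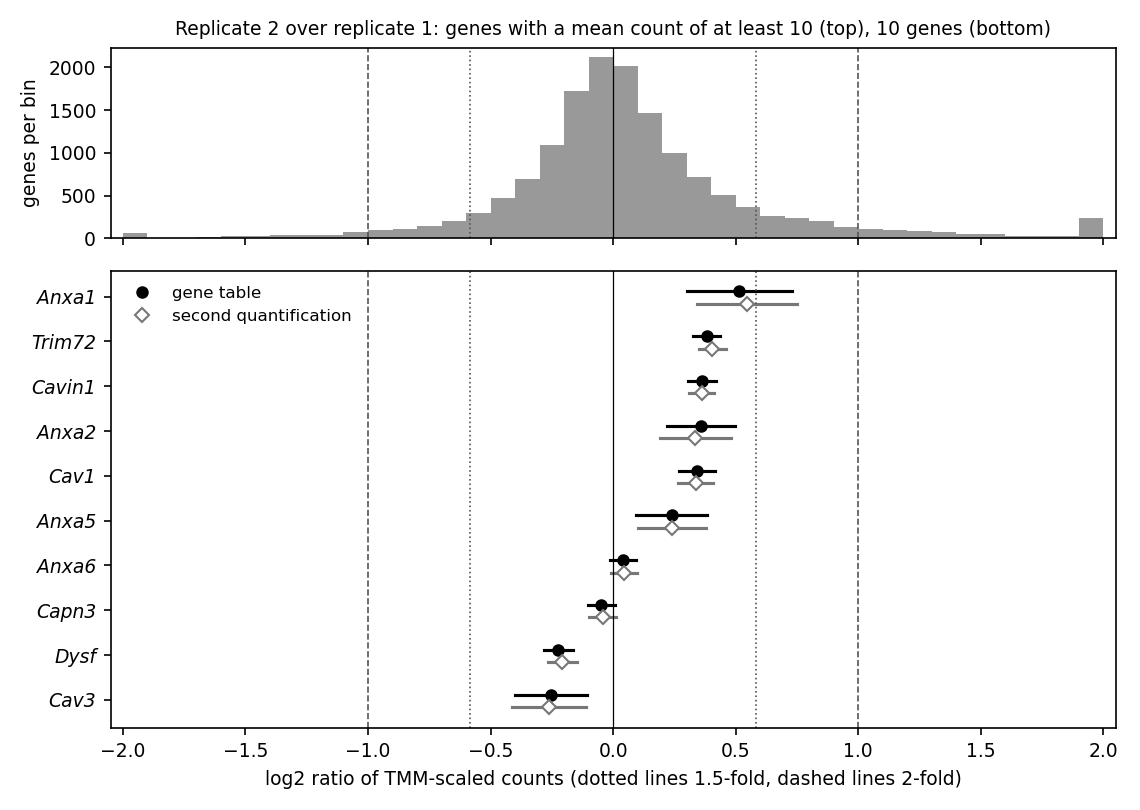
Log2 ratio of TMM-scaled counts, replicate 2 over replicate 1, for the 14953 genes whose counts averaged 10 or more (top, with values beyond 2 either way gathered in the end bins) and for the 10 genes (bottom), with exact binomial 95% intervals as lines; dots are the gene table and diamonds the second quantification. All 10 points lie inside the 1.5-fold lines, 7 above 0 and 3 below it; with spike-in scaling every gene shifts by 0.22 and Capn3 turns to 0.17.

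The annotation lists 64 transcripts of the 10 genes, 39 of them protein-coding. The transcript of highest TPM was the same in both libraries and both transcript tables for 8 of the 10 genes. Trim72, Cav3, Anxa2 and Capn3 were carried almost wholly by 1 transcript in the first table. Trim72-202 took 97.7% of the gene's TPM in replicate 2 and 99.2% in replicate 1. Capn3-202, the full-length form with 24 exons, took 95.9% in replicate 2 and 96.9% in replicate 1. Anxa2-201 took 97.7% in replicate 2 and 96.9% in replicate 1, but 94.3% and 82.0% in the same libraries by the second table. Cav3 has only 1 annotated transcript.

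The exceptions by TPM were Dysf and Anxa1. For Dysf the first table put Dysf-207, a noncoding transcript of 404 nt with 2 exons, highest, at 30.3% of the gene's TPM in replicate 2 and 31.0% in replicate 1. It held 2.28% of the gene's counts in replicate 2 and 2.30% in replicate 1, since TPM divides by length. The second table gave Dysf-207 0 TPM in replicate 2 and 1.12 TPM in replicate 1, and put the coding Dysf-204 highest, at 48.8% in replicate 2 and 43.5% in replicate 1. For Anxa1 both tables put Anxa1-201 highest in replicate 2 and Anxa1-208 highest in replicate 1. The authors' interval for Anxa1-201 was 2.10 to 7.54 TPM in replicate 2 and 0.180 to 4.19 TPM in replicate 1, so the libraries overlapped. Both transcripts have a coding length of 1038 nt.

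Cavin1 also divided between a coding and a short noncoding transcript, which went opposite ways. The coding Cavin1-201 had 51.6 TPM in replicate 2 and 37.3 TPM in replicate 1. The authors' intervals for it were 49.4 to 52.0 TPM in replicate 2 and 35.4 to 37.7 TPM in replicate 1. The noncoding Cavin1-202, of 658 nt, had 13.0 TPM in replicate 2 and 18.9 TPM in replicate 1, with intervals of 10.5 to 15.2 TPM and 15.9 to 21.4 TPM in the same libraries. The libraries did not overlap for either transcript. The second table had the same directions, with Cavin1-202 at 29.5 TPM in replicate 2 and 41.2 TPM in replicate 1. By counts, Cavin1-202 held 3.99% of the gene in replicate 2 and 7.68% in replicate 1. Anxa5 carried a retained-intron transcript, Anxa5-202, at 25.4% of its TPM in replicate 2 and 17.0% in replicate 1 in the first table. The second table gave it 11.4% in replicate 2 and 1.40% in replicate 1.

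Coding exons that some protein-coding transcript leaves out numbered 11, in Dysf, Anxa5, Anxa6 and Capn3. Inclusion is the share of TPM in protein-coding transcripts that hold the exon. The 18-base exon of Anxa6, a known alternative exon of that annexin, was the one most evenly used. It was included at 64.0% in replicate 2 and 73.0% in replicate 1. By the second table it was included at 71.8% in replicate 2 and 79.7% in replicate 1. Inclusion was thus lower in replicate 2 by both quantifications, while the count ratio of the gene was 1.03. The transcript without it, Anxa6-201, had 26.4 TPM in replicate 2 and 18.5 TPM in replicate 1. The authors' intervals for it were 21.5 to 29.6 TPM in replicate 2 and 14.0 to 22.5 TPM in replicate 1, so they overlapped. With 1 library on each side the difference in inclusion has no replicate check.

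The Capn3 exons are the ones that muscle calpain-3 holds and that shorter forms of other tissues leave out. The 144-base exon, part of an insert in the protease domain that other calpains lack, was included at 99.4% in replicate 2 and 100% in replicate 1. The 18-base and 114-base exons, from the insert that precedes the calcium-binding end, were each included at 99.3% in replicate 2 and 99.6% in replicate 1. In the printed sequences the 18-base exon is made mostly of A, and it directly precedes the 114-base exon. In the second table this pair stood at 97.7% in replicate 2 and 99.5% in replicate 1. Nearly all coding Capn3 RNA in these muscles thus belonged to transcripts with all 3 exons.

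Dysf used its alternative exons to different degrees. The 42-base exon was mostly included, at 87.6% in replicate 2 and 93.1% in replicate 1. The 93-base exon was mostly left out, with inclusion of 11.2% in replicate 2 and 6.88% in replicate 1. The 63-base exon was also mostly left out, with inclusion of 11.2% in replicate 2 and 9.03% in replicate 1. The second table placed the same exons on the same sides, at 85.5%, 9.53% and 13.5% in replicate 2 and 93.6%, 5.86% and 11.9% in replicate 1. For the 93-base and 63-base exons these shares rested on different transcripts in each table. In the first table Dysf-215, which holds both exons, had 2.11 TPM in replicate 2 and 1.47 TPM in replicate 1. In the second table it had 0.0045 and 0.042 TPM in the same libraries. For several long Dysf transcripts the deposited TPM lay outside the authors' own interval, as for Dysf-202 with 7.99 TPM in replicate 2 against an interval of 3.12 to 7.31 TPM. The error of these shares is therefore not given by the intervals.

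**Figure D3:**
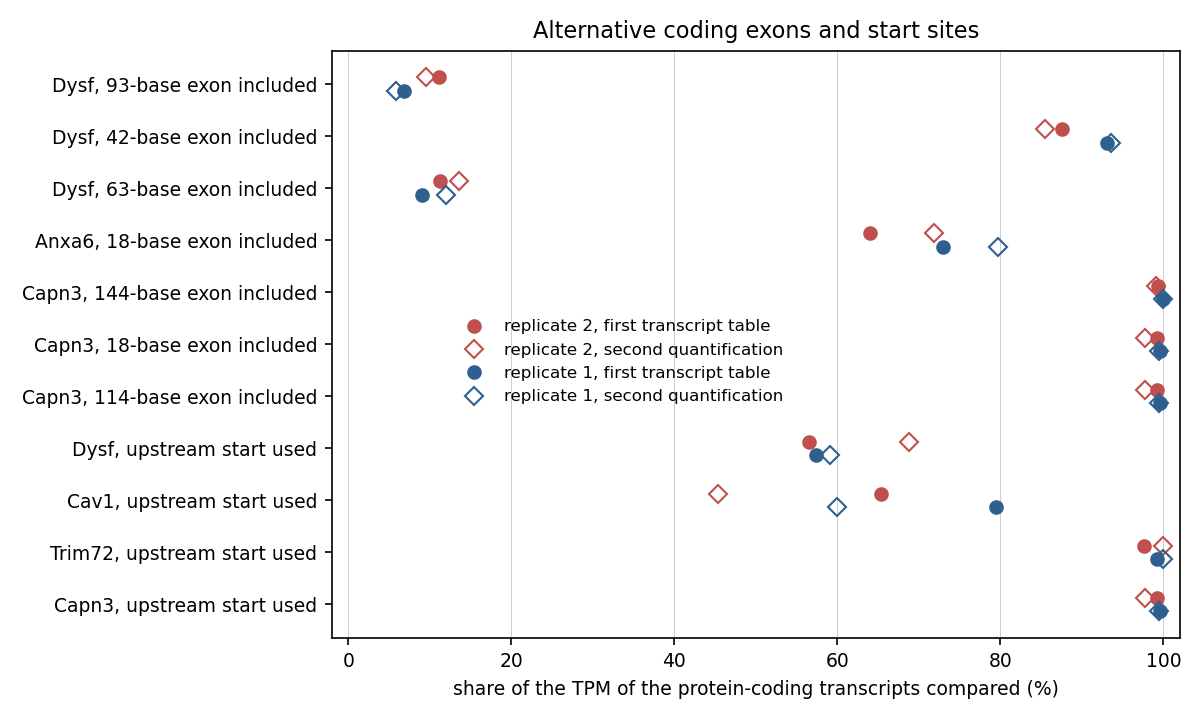
Share of the TPM of protein-coding transcripts that includes each alternative exon or begins at the upstream start site, in percent, with replicate 2 in red above replicate 1 in blue; filled points are the first transcript table and open diamonds the second quantification. Capn3 and Trim72 lie near 100% in both libraries and both tables, the Dysf 93-base and 63-base exons lie under 15%, and Cav1 starts differ most between the tables.

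Protein-coding transcripts of Dysf, Cav1, Trim72 and Capn3 begin at more than 1 cluster of start sites (starts within 400 bases of each other were joined). Dysf used both of its clusters. The upstream cluster, at 84008590 to 84008915 of chromosome 6, took 56.5% of coding-transcript TPM in replicate 2 and 57.4% in replicate 1. By the second table it took 68.8% in replicate 2 and 59.2% in replicate 1. The downstream cluster, at 84019385 to 84019389, took the rest. Human DYSF also has an alternative first exon. Capn3 used its upstream start for 99.3% of coding-transcript TPM in replicate 2 and 99.6% in replicate 1. Trim72 used its upstream start for 97.7% in replicate 2 and 99.2% in replicate 1.

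Cav1 starts depended on the quantification. The upstream cluster gives the form with a coding length of 534 nt, caveolin-1 alpha, and the downstream cluster gives the form of 441 nt, caveolin-1 beta. The first table gave the upstream cluster 65.3% of coding-transcript TPM in replicate 2 and 79.5% in replicate 1. The second table gave it 45.4% in replicate 2 and 60.0% in replicate 1, so the leading cluster in replicate 2 changed with the table. In both tables the upstream share was lower in replicate 2. Of the downstream transcripts, Cav1-203 had 12.2 TPM in replicate 2 and 3.86 TPM in replicate 1, with authors' intervals of 6.44 to 14.8 TPM and 0.539 to 6.16 TPM in the same libraries.

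The promoters of the paired start sites of Capn3 and Dysf are printed next, because the start shares set a nearly unused start beside a used one in Capn3 and a pair of used starts in Dysf. Each is the 250 bases before a RefSeq start on GRCm38.p6, on the plus strand, at chr2:120463343-120463592 and chr2:120476659-120476908 for Capn3 and at chr6:84008348-84008597 and chr6:84019136-84019385 for Dysf. RefSeq windows matched 9 of the 10 genes, all but Anxa6, and capitals mark a match on either strand to the TATA box (TATAAA), to the GC box searched as GGGCGG, to the MEF2 site or to the CArG box.
Capn3 upstream promoter: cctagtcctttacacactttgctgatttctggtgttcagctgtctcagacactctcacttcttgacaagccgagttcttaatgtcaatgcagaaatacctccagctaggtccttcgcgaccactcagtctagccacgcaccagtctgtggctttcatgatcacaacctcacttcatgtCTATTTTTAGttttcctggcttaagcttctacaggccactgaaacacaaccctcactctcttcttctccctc
Capn3 downstream promoter: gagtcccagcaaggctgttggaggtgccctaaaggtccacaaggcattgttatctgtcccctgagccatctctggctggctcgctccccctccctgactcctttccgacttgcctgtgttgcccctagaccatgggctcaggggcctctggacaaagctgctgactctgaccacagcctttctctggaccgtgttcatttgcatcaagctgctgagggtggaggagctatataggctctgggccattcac
Dysf upstream promoter: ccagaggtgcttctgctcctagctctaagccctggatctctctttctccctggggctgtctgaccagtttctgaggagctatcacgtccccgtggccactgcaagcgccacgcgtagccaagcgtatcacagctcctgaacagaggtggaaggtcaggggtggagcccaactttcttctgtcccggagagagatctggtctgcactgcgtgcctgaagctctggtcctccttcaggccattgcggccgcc
Dysf downstream promoter: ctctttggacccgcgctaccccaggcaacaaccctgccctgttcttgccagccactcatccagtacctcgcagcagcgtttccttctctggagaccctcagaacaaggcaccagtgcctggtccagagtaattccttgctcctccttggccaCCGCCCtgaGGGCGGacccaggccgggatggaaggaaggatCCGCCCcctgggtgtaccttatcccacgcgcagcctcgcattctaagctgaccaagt
The upstream Capn3 window held 1 match to the MEF2 site, the element of the MEF2 factors of muscle, as did 2.92% of the 32851 windows of this length. The downstream Capn3 window held none of the 4 marked motifs. The TATA box was searched only as TATAAA, so the run tatata near the end of that window was not a match. The downstream Dysf window held 3 matches to GGGCGG, a motif found in 32.7% of all windows, and the upstream Dysf window held none of the 4. CANNTG, the E-box of myogenic factors, is not marked, and no marked matches overlap each other. It had 1 match in each Capn3 window, none in either Dysf window and 3 in the Trim72 window, which lies before the little-used downstream start of that gene, and 66.2% of all windows held it. TATAAA was found in a window of Cav1, Anxa1 and Anxa2 each, and in 12.4% of all windows. No window of the 9 genes held the CArG box, which 1.47% of all windows held. A match is a run of letters and not a measured site.

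Related genes were counted in 6 lists. Of the other ferlins, anoctamins and AHNAK genes, 7 of 9 had counts that averaged 10 or more, and 2 of these were at least 2-fold higher in replicate 2 and none at least 2-fold lower. At least 2-fold higher in replicate 2 were 5.22% of all genes tested, and at least 2-fold lower 2.25%. The 2 genes, Otof and Fer1l6, were near the lower limit of counting. Otof had 20 and 2 expected counts in replicates 2 and 1, a ratio of 7.34 with an interval of 2.14 to 77.9. Fer1l6 had 57 and 22 in the same libraries, a ratio of 2.26. The abundant members were Ahnak, a giant scaffold that binds dysferlin, with 83.9 TPM in replicate 2 and 80.9 TPM in replicate 1, and Ano5, an anoctamin whose loss also causes human limb-girdle dystrophy, with 34.0 TPM in replicate 2 and 43.6 TPM in replicate 1. Ano6, the phospholipid scramblase, had 19.3 TPM in replicate 2 and 20.0 TPM in replicate 1. By the second quantification Ano5 had 41.8 TPM in replicate 2 and 57.8 TPM in replicate 1, above Dysf in both libraries. Fer1l4 and Fer1l5 were at 0 in both libraries. The median log2 ratio of this list was 0.15.

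None of the 12 other caveola genes was past 2-fold, and their median log2 ratio was 0.11. Bin1, which shapes the membrane of the T-tubules, led them with 271 TPM in replicate 2 and 316 TPM in replicate 1, well above the 3 caveola genes described here. Pacsin3, a membrane-bending protein of muscle, had 175 TPM in replicate 2 and 166 TPM in replicate 1. Cavin4, the muscle cavin, had 57.2 TPM in replicate 2 and 55.4 TPM in replicate 1. At 1.5-fold, 2 of the 12 were higher in replicate 2, as were 11.1% of all genes tested, and none was lower, against 6.16%.

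Of the other annexins and their S100 partners, 9 of 12 were tested and none was past 2-fold, while 3 were at least 1.5-fold higher in replicate 2, as were 11.1% of all genes tested, and none lower, against 6.16%. The median log2 ratio was 0.27. The most abundant were S100a6, a calcium-binding S100 protein, with 44.9 TPM in replicate 2 and 26.6 TPM in replicate 1, Anxa11 with 42.3 TPM in replicate 2 and 41.3 TPM in replicate 1, and Anxa7 with 30.7 TPM in replicate 2 and 29.1 TPM in replicate 1. All 3 stood below Anxa6 and above Anxa2, Anxa5 and Anxa1 in mean TPM. Anxa13 was at 0 in both libraries.

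Of the other calpains and calpastatin, 9 of 15 were tested, none was past 2-fold and 1 was at least 1.5-fold lower in replicate 2, as were 6.16% of all genes tested. None was at least 1.5-fold higher, against 11.1%, and the median log2 ratio was -0.11. Capns1, the small subunit of the ubiquitous calpains, had 86.3 TPM in replicate 2 and 82.1 TPM in replicate 1. Cast, which encodes their inhibitor calpastatin, had 44.9 TPM in replicate 2 and 37.0 TPM in replicate 1. Capn1, a ubiquitous catalytic subunit, had 37.9 TPM in replicate 2 and 45.4 TPM in replicate 1. Capn3 at 53.0 and 52.8 TPM in the same libraries was therefore the highest of the catalytic calpain genes counted here. Capn8, Capn9 and Capn13 were at 0 in both libraries.

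Of the 14 genes of the ESCRT machinery, which sheds wounded membrane, 1 was at least 2-fold higher in replicate 2, as were 5.22% of all genes tested, and none at least 2-fold lower, against 2.25%. The median log2 ratio was 0.04. That gene, Chmp4c, had 0.85 TPM in replicate 2 and 0.19 TPM in replicate 1, a count ratio of 4.35 with an interval of 3.05 to 6.47. The abundant subunits Chmp4b, Chmp2a and Vps4a had 53.7, 43.3 and 29.9 TPM in replicate 2, against 52.3, 38.7 and 29.2 TPM in replicate 1. Of the genes of vesicle fusion and lysosome exocytosis, all 11 matched genes were tested and none was past 2-fold, with a median log2 ratio of 0.05. At 1.5-fold, 1 of them was higher in replicate 2, against 11.1% of all genes tested, and none lower, against 6.16%. Lamp1, Napa and Stx4a were the most abundant, at 187, 42.4 and 23.9 TPM in replicate 2 and 174, 44.4 and 24.8 TPM in replicate 1. Vamp7 was not matched by name and was not analysed here.

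**Figure D4:**
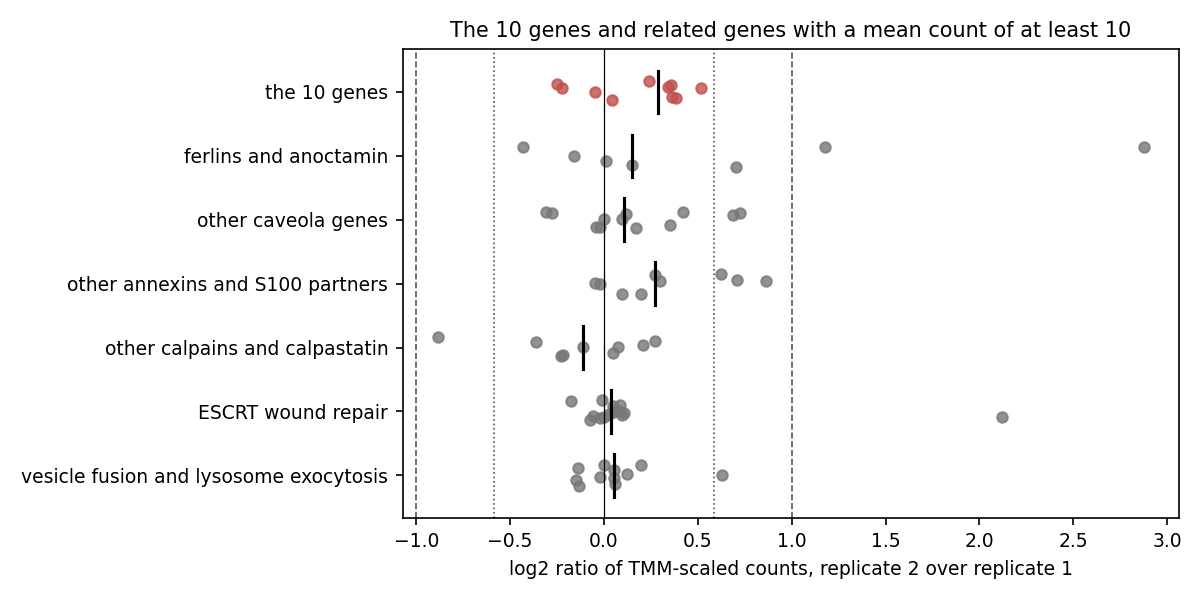
Log2 ratio of TMM-scaled counts, replicate 2 over replicate 1, for the 10 genes (red) and the tested genes of 6 related lists (grey), 1 point a gene, with the median as a black bar, dotted lines at 1.5-fold and dashed lines at 2-fold. The medians run from -0.11 for the calpains to 0.29 for the 10 genes, and the points past 2-fold are Otof, Fer1l6 and Chmp4c.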

How the data were processed

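The authors deposited, per the file headers, expected counts and TPM per gene and per transcript, with intervals for TPM and the percent of its gene's TPM held by each transcript. These came from a transcriptome alignment, and a second transcript table of estimated counts and TPM came directly from the reads, per the list of files deposited with each sample. The labels name mm10, and that list names annotation M21. Which program made them is not given in the sources used here. Input was 300 ng of total RNA with ERCC spike-ins, per the labels.

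The 10 genes and the related lists were chosen with earlier results of these data known. Expected counts were rounded to whole numbers (9 of the 10 genes had whole counts within 0.001) and scaled by TMM factors (edgeR 4.0.16, R 4.3.3), with 0.5 added before log2. Genes whose counts averaged 10 or more were tested for a ratio past 2-fold or 1.5-fold. The series has 1 group, so no p-value was computed and edgeR served for scaling alone. Exact binomial intervals used scipy 1.17.1 in Python 3.11.15. The ratio steps were tested on simulated data. The second table was summed per gene. The 96 spike-ins, with 212898 counts in replicate 2 and 218897 in replicate 1, were used only for an alternative scaling. Entries without a gene in the annotation were left out.

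All 10 genes are named. Of each related list the 3 of highest mean TPM and every gene past 2-fold are named. Marker lists are given by counts and sums. No gene is named for a pattern like that of the 10, since likeness cannot be measured over 2 libraries. Other genes were named after their values were seen (Ganc as an overlapping gene). Depth of 44.9 M and 40.8 M expected counts in replicates 2 and 1 limits the genes of few counts most. Alternatives were size factors, total counts, spike-ins, TPM with 0.5 or 0.1 added, the second table, other filters and other denominators.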

Additional observations from a re-analysis of the deposited data

How the results depend on the processing

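Spike-in scaling shifted every gene by 0.22 on the log2 scale against TMM. It put 2 of the 10 genes past 1.5-fold, Trim72 at a log2 ratio of 0.60 and Anxa1 at 0.73, both higher in replicate 2, where 21.7% of all genes tested were past 1.5-fold. The median log2 ratio of the 10 genes was then 0.51, beside 0.23 over all genes tested. No gene of the 10 was past 2-fold under any of the 8 alternatives, and none was past 1.5-fold under the other 7. Only the sign of Capn3 changed, to 0.17 with spike-ins and 0.0068 with TPM. The single log2 ratios moved little in 61 of 80 cases. The 61 include 10 cases for each alternative that changed only the count filter, which leaves every ratio as it is. Those filters could therefore not have moved any of the 10 genes past a fold. Levels rest on the denominator: over nuclear protein-coding genes alone all 10 means were higher, with Dysf at 75.3 TPM and Trim72 at 182 TPM. That rise was fixed in advance, since a smaller denominator raises every gene of a library by the same factor. The count of genes with 1 leading transcript was 8, and 8 or 9 under other measures. With counts in place of TPM it was again 8, but the exceptions were Cav1 and Anxa1. Dysf-204 then led Dysf throughout. Cav1-202, at 1915 estimated counts, passed Cav1-201, at 1783, in replicate 2 of the second table. No paired analysis was possible because the series has 1 group. Depth limits Anxa1 most, and 2 libraries give no check of any difference.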
